A study of Homo sapiens with 9 samples.

Results

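Chemokines are small secreted proteins that attract leukocytes through G protein-coupled receptors. The 7 chemokine genes described here are CCL1, CCL3, CCL4, CCL5, CCL20, CXCL8 and CXCL10, chosen by Ensembl gene ID among the 19569 IDs of a table of ribosome footprint counts, and all 7 were present. Ribosome profiling sequences the mRNA fragments that translating ribosomes protect, so a count depends on both the amount of an mRNA and its translation, which were not separated here. The cells were human Jurkat T lymphoblasts of clone E6-1, 1 clone of a line derived from a leukaemia. Per the labels, the libraries came from 3 groups with 3 biological replicates each: resting cells, and cells at 5 h and 12 h of activation. Activation combined anti-CD3 antibody on the plate (10 µg/mL coating) with anti-CD28 antibody in the medium (5 µg/mL). Resting cells were the non-activated controls, with neither antibody.

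T cells make several chemokines soon after their antigen receptor is engaged, and these recruit monocytes, neutrophils and other lymphocytes. CCL3 and CCL4, both macrophage inflammatory proteins, attract monocytes and T cells, as does CCL5 (RANTES). CCL1 acts on CCR8 and CCL20 on CCR6, while CXCL8 (interleukin 8) draws neutrophils through CXCR1 and CXCR2. CXCL10 is an interferon-induced ligand of CXCR3. Transcription of many chemokine genes is known to use NF-kappaB, with AP-1 and NFAT also used at several genes in activated T cells.

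The windows around the start sites of the members are shown as background. The genes differed in whether and how strongly their footprints appeared after activation, but a link to these sequences was not tested. RefSeq's promoter table (GRCh38.p14) held a window of 300 bases, 250 before the start and 50 after it, for 5 of the 7 members, CCL1, CCL3, CCL20, CXCL8 and CXCL10; CCL4 and CCL5 are named only. Each is printed 5′ to 3′ on the gene's own strand. CXCL8 lies at chr4:73740319-73740618 (plus strand), CCL20 at chr2:227813592-227813891 (plus strand), CCL1 at chr17:34363184-34363483 (minus strand), CCL3 at chr17:36090094-36090393 (minus strand, the first of 3 starts listed) and CXCL10 at chr4:76023448-76023747 (minus strand). Capitals mark matches, on either strand, to the kappaB consensus, the AP-1 motif TGANTCA, the interferon response core (GAAA, then NN, then GAAA) and the TATA box TATAAA. The kappaB consensus was either GGGRNNYYCC or the looser form HGGARNYYCC. In these R is A or G, Y is C or T, H is any base but G, and N is any base.
CXCL8: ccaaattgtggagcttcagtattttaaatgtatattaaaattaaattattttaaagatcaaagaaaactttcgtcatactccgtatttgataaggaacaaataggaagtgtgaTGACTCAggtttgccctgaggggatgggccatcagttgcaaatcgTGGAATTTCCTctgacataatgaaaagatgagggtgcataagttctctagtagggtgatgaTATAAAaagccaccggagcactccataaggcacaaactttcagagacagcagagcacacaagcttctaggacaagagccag
CCL20: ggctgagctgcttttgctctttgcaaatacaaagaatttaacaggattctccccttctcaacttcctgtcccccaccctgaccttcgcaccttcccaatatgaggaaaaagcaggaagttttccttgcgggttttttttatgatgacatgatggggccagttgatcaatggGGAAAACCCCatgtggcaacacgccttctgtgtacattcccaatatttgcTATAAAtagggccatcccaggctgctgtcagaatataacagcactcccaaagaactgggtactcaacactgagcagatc
CCL1: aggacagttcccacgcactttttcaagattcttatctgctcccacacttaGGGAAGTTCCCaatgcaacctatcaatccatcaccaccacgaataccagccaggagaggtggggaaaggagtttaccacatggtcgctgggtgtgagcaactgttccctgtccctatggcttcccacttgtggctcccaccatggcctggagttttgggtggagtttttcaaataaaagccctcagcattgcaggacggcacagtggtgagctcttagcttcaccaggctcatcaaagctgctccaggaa
CCL3: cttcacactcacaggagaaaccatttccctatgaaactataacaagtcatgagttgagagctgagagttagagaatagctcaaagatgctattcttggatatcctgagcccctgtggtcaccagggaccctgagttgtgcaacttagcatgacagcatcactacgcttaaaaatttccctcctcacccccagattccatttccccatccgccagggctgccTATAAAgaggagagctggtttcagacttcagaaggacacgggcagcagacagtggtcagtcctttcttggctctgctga
CXCL10: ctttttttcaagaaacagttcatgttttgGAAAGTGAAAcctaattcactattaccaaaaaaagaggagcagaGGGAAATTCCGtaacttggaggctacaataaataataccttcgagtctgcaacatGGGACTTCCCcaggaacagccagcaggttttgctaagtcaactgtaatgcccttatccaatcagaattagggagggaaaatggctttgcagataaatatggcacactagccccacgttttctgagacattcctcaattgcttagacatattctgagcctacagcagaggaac

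A kappaB match stood in 4 of the 5 windows, those of CXCL8, CCL20, CCL1 and CXCL10, against 17.3% of all 35116 windows of this length in the table. In CXCL8 it began 92 bases before the start site and in CCL20 79 bases before it. The CXCL8 match fitted only the looser form of the consensus. CCL1 had 1 match 200 bases before the start, and CXCL10 had separate ones at 177 and 122 bases before it. The reverse strand also matched at or beside every one of these positions except that in CCL20, which was a match on the reverse strand only. The AP-1 motif was found only in CXCL8, 137 bases before the start, and in 7.71% of all windows. The interferon response core was found only in CXCL10, 221 bases before the start, and in 3.57% of all windows. TATAAA was present in CXCL8, CCL20 and CCL3 and in 11.5% of all windows. The NFAT core GGAAA, not capitalised, was present in all 5 windows, but also in 61.2% of all windows, and it overlapped the kappaB matches of CCL20, CXCL8 and CXCL10. Its match 222 bases before the start of CXCL10 also overlapped the interferon response core. These are letter matches only, and binding was not measured.

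The shallowest library, 12 h replicate 2, held 4343515 counts and the deepest, 5 h replicate 3, held 18506509. CPM here means counts per 1000000 of the library total times its TMM factor, a scaling that assumes most genes do not change. The T cell label was not checked against marker genes, because the tables used here do not pair other symbols with the Ensembl IDs. For the same reason other chemokines, chemokine receptors and their signalling genes were not analysed here.

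After 5 h of activation CCL4 and CXCL8 carried most footprints of the 7 genes. Summed over the 7 genes, footprints stood at 0.586 ± 0.634 CPM in resting cells, 26.9 ± 4.21 CPM at 5 h and 2.84 ± 1.07 CPM at 12 h (SD, n = 3). In counts the sums were 16, 1091 and 68. At 5 h CCL4 held 58.0% of these counts and CXCL8 30.5%, and the other genes together 11.5%. At rest these other genes held 62.5%, from only 10 of 16 counts. At 12 h the other genes together held 48.5%, 33 of 68 counts, and CCL4 held 22.1%. Dropping 12 h replicate 3 lowered that 48.5% to 39.3%, while dropping 12 h replicate 1 raised it to 60.7%. The CCL4 share rested on 12 h replicate 1: it was 35%, 6.25% and 0% in 12 h replicates 1, 2 and 3, and 3.57% without replicate 1, from 1 of 28 counts. Of the 16 resting counts, 12 came from resting replicate 2, and of the 68 counts at 12 h, 40 came from 12 h replicate 1. In these bulk libraries fewer cells making a chemokine, less RNA per cell and less translation of that RNA cannot be told apart.

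**Figure D1:**
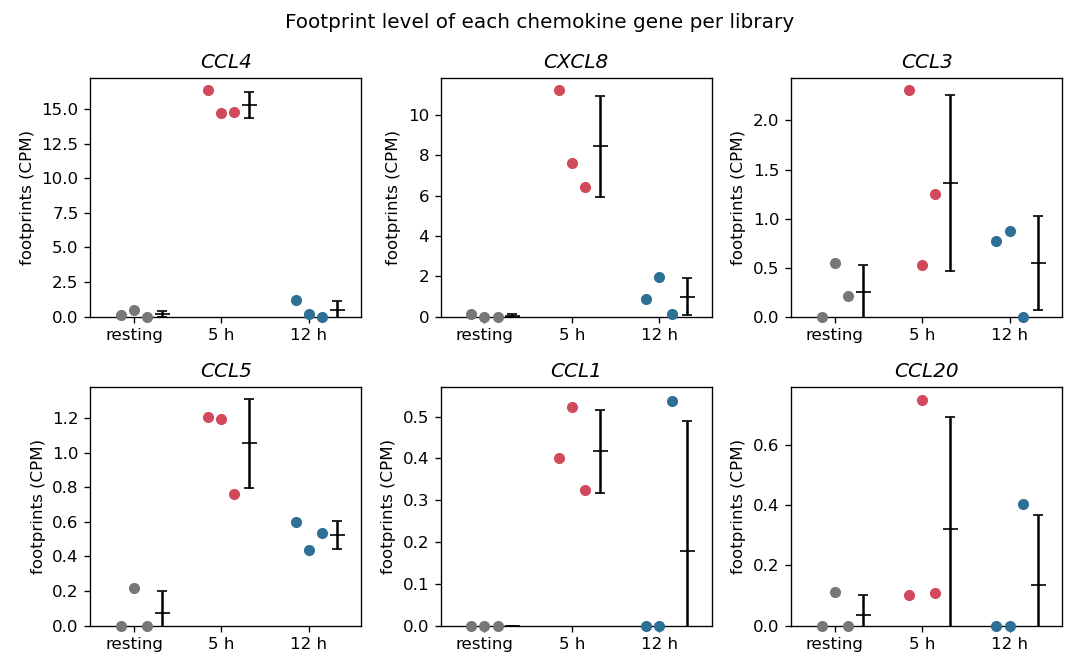
Footprint level in CPM of each chemokine gene with a count, at rest, 5 h and 12 h; each point is a library, with replicates 1 to 3 from left to right, and the bar gives the mean and SD of 3 libraries (cut off at 0). The axes differ between genes: CCL4 and CXCL8 reach 16.4 and 11.3 CPM, while the other genes stay at or below 2.31 CPM.

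CCL4 (ENSG00000275302.2), a macrophage inflammatory protein, had 163, 197 and 273 counts in 5 h replicates 1, 2 and 3, against 1, 4 and 0 counts in the resting replicates. That is 16.4, 14.7 and 14.8 CPM at 5 h, against 0.116, 0.439 and 0 CPM at rest. The 5 h libraries were close to each other and all far above every resting library. The mean was 15.3 ± 0.937 CPM at 5 h and 0.185 ± 0.228 CPM at rest (SD, n = 3 each), with a ratio of pooled CPM of 83.0. Its exact 95% counting interval ran from 35.4 to 256. This and the other intervals hold only the error of counting, since they pool the libraries of a group and leave out the spread between replicates. Fragments copied by amplification are not separate molecules, so even the counting error may be larger. An interval that leaves out 1 is therefore not a call. The fitted log2 fold change was 6.30 ± 0.64 (SE), and edgeR's quasi-likelihood test, adjusted by Benjamini-Hochberg over all IDs tested, gave an adjusted p of 4.16e-08.

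CXCL8 (ENSG00000169429.11), the neutrophil attractant, had 112, 102 and 119 counts in the 5 h libraries, against 1, 0 and 0 counts in the resting libraries. Its levels were 11.3, 7.63 and 6.45 CPM at 5 h, against 0.116, 0 and 0 CPM at rest. Resting replicate 1 held the only resting count, and no 5 h library came near it. Set on that 1 count, the pooled CPM ratio was 218, and its 95% counting interval ran from 38.9 to 8645. The fitted log2 fold change was 7.43 ± 0.87 (SE), with an adjusted p of 4.08e-07 by the same edgeR test. It was 9.47 without resting replicate 1, the adjusted p being 2.52e-06 by edgeR. For CCL4 the value was 7.84 without resting replicate 2, the library with 4 of its 5 resting counts, and 5.70 without resting replicate 3, which had none.

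CCL4 and CXCL8 were the 2 members that passed the filter on low counts, which asked for about 1 CPM in at least 3 libraries. They passed only through the 5 h libraries, so their being called at 5 h is partly built into the filter. Both were called higher at 5 h, where 16% of the 13920 tested IDs were called higher. By fitted log2 fold change CXCL8 was 18th and CCL4 36th from the top of these IDs, whose median was 0.07 and whose 99th percentile was 3.52. Folds of genes with almost no resting count depend on the prior count of the fit.

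**Figure D2:**
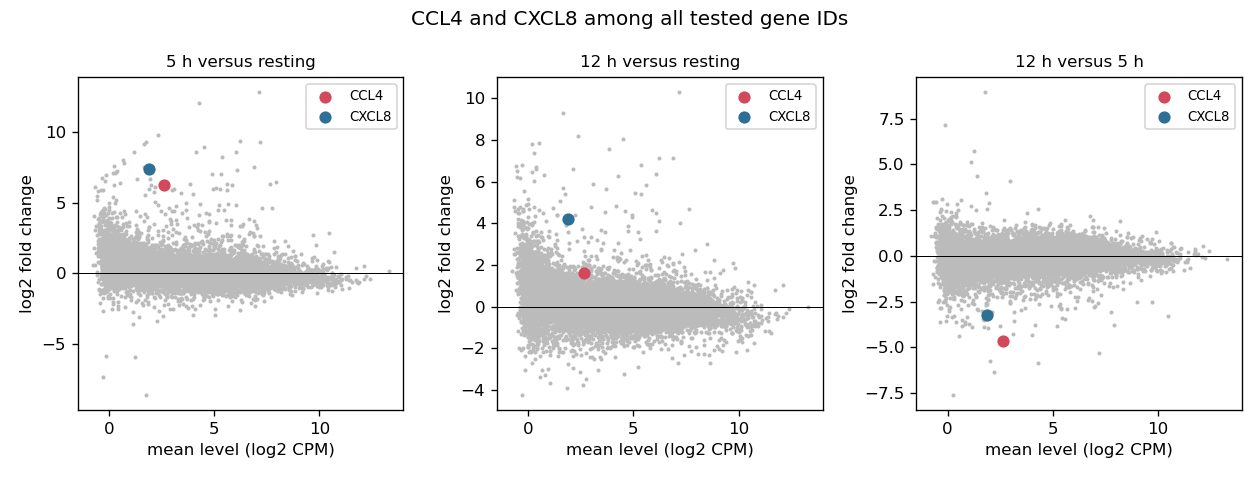
Log2 fold change against mean level (log2 CPM) for all 13920 tested gene IDs (grey) in each comparison, with CCL4 (red) and CXCL8 (blue). Both lie well above most IDs at 5 h versus resting (6.30 and 7.43) and well below most at 12 h versus 5 h (-4.68 and -3.22); at 12 h versus resting CXCL8 lies at 4.22 and CCL4 at 1.62.

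The other members had few footprints at any time. CCL5 (ENSG00000271503.6), known in primary T cells for its late expression after activation, had 12, 16 and 14 counts at 5 h, against 0, 2 and 0 at rest. Its mean was 1.05 ± 0.256 CPM at 5 h and 0.0732 ± 0.127 CPM at rest (SD, n = 3 each), and the groups did not overlap. The ratio of pooled CPM was 13.8, with a 95% counting interval from 3.58 to 117. CCL5 did not pass the low-count filter. In a fit with no filter its log2 fold change was 3.63 ± 1.38 (SE), with an edgeR adjusted p of 0.0426, and 11.6% of the 19191 IDs in that fit were called higher. Without 1 library at a time, 5 of 6 such unfiltered fits gave no call, with log2 fold changes between 3.08 and 3.76 and edgeR adjusted p between 0.0648 and 0.138 in those 5. The fit without resting replicate 2, which held both resting counts, gave 6.48 with an edgeR adjusted p of 0.0172. With the filter kept, CCL5 was tested in 4 fits without 1 library and called in 2, without resting replicate 2 (edgeR adjusted p 0.0179) and without 5 h replicate 3 (edgeR adjusted p 0.0416).

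CCL3 (ENSG00000277632.2), also a macrophage inflammatory protein, had 23, 7 and 23 counts at 5 h, against 0, 5 and 2 at rest. These are 2.31, 0.524 and 1.25 CPM at 5 h, against 0, 0.549 and 0.207 CPM at rest, so that 5 h replicate 2 lay just below resting replicate 2. The ratio of pooled CPM was 4.96 (95% counting interval 2.25 to 12.9), and the unfiltered fit gave a log2 fold change of 2.34 ± 1.14 (SE) with an edgeR adjusted p of 0.13. CCL3 and CCL4 each have near-identical copies in the human genome, and the sources used here do not say how the authors' counting shared short footprints among copies. Their counts are therefore uncertain as counts of 1 gene.

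CCL1 (ENSG00000108702.4), a ligand of CCR8, had no count in any resting library and 4, 7 and 6 counts at 5 h. Its 5 h mean was 0.417 ± 0.1 CPM (SD, n = 3), while 0 counts over the resting group allow up to 0.11 CPM. With no resting count the ratio of pooled CPM has only a lower limit, 2.70 by the exact 95% counting interval. In the unfiltered fit the edgeR adjusted p was 0.106. CCL20 (ENSG00000115009.13), a ligand of CCR6, had 1, 10 and 2 counts at 5 h, against 0, 1 and 0 at rest, and 5 h replicate 2 held 10 of the 13 counts at 5 h. Its ratio of pooled CPM was 8.52 (95% counting interval 1.28 to 362), and its edgeR adjusted p was 0.381 in the unfiltered fit.

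CXCL10 (ENSG00000169245.6), the interferon-induced member, had no count in any of the 9 libraries. Over all 9 a count of 0 allows up to 0.0323 CPM, and in single libraries from 0.163 CPM in 5 h replicate 3 to 0.656 CPM in 12 h replicate 2. Footprints of CXCL10 were thus not detected at this depth at rest, at 5 h or at 12 h.

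Across the 7 genes, the 5 h libraries all lay above the resting ones for 4, CCL1, CCL4, CCL5 and CXCL8. Over all IDs with a count the same held for 19.9%, and among IDs below the low-count filter for 11.6%, against 2 of the 4 members with a count there. All 4 of those had a higher mean at 5 h, as did 72.1% of the 5271 IDs below the filter. A higher mean at 5 h was thus common among weakly counted IDs in general. The 5 h libraries held 9492122, 13026762 and 18506509 counts, against 9239287, 10171929 and 10160141 in the resting ones. Whether this difference in depth adds to these shares was not tested.

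**Figure D3:**
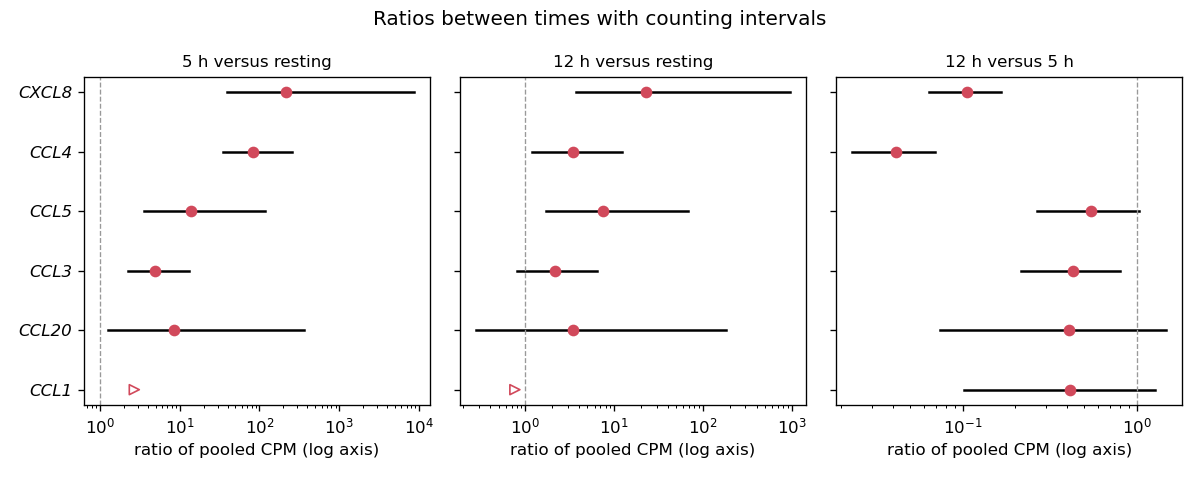
Ratio of pooled CPM between groups (log axis, which differs between panels) for the 6 members with a count; points are ratios, lines their exact 95% counting intervals and open triangles the exact 95% lower limits for CCL1 (2.70 and 0.761), which had no resting count. At 12 h versus 5 h the intervals of CCL4 (0.0232 to 0.0693) and CXCL8 (0.0637 to 0.166) lie below those of CCL5 (0.268 to 1.03) and CCL3 (0.216 to 0.802), while the wider ones of CCL1 (0.101 to 1.27) and CCL20 (0.0742 to 1.48) overlap that of CXCL8. The intervals leave out the spread between replicates, and a difference between genes was not tested.

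At 12 h CXCL8 was still above rest, while CCL4 did not pass the test. CXCL8 had 10, 9 and 1 counts at 12 h, against 1, 0 and 0 at rest, that is 0.854, 1.97 and 0.134 CPM against 0.116, 0 and 0 CPM. The groups did not overlap, although 12 h replicate 3 lay only just above resting replicate 1. Each of these 2 libraries held 1 count, so only their scaled sizes set that order. The ratio of pooled CPM was 23.1 (95% counting interval 3.69 to 956). The fitted log2 fold change was 4.22 ± 1.07 (SE), the edgeR adjusted p was 0.0034, and CXCL8 was the only member called, where 15.8% of tested IDs were called higher. That log2 fold change was 6.25 without resting replicate 1, 3.52 without 12 h replicate 2 and between 3.71 and 4.74 without any other library of the comparison. CXCL8 was tested here only through its 5 h libraries, since no member passed the low-count filter in a fit of the 12 h and resting libraries alone.

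CCL4 had 14, 1 and 0 counts at 12 h, against 1, 4 and 0 at rest, or 1.20, 0.219 and 0 CPM against 0.116, 0.439 and 0 CPM. The groups overlapped, and 12 h replicate 1 held 14 of the 15 counts. The log2 fold change of 1.62 ± 0.88 (SE) was not called, with an adjusted p of 0.166 by edgeR. This value rested on single libraries: it was -1.02 without 12 h replicate 1, and it was called without resting replicate 2 (3.16, edgeR adjusted p 0.0455) and without 12 h replicate 3 (2.15, edgeR adjusted p 0.0416).

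CCL5 had 7, 2 and 4 counts at 12 h, and its 0.598, 0.437 and 0.537 CPM lay above the 0, 0.22 and 0 CPM at rest. Its ratio of pooled CPM was 7.49 (95% counting interval 1.70 to 68.4), and the unfiltered fit gave an edgeR adjusted p of 0.18. CCL5 and CXCL8 were the 2 members whose 12 h libraries all lay above the resting ones, as for 17.8% of IDs with a count. CCL3 had 9, 4 and 0 counts at 12 h, 0.548 ± 0.477 CPM, against 0.252 ± 0.277 CPM at rest (SD, n = 3 each). The CCL1 and CCL20 counts at 12 h, 4 and 3, all lay in 12 h replicate 3. For CCL1 the exact 95% lower limit of the ratio to rest was 0.761, which does not bound an increase. None of CCL1, CCL3 and CCL20 was called in the unfiltered fit at 12 h, where 10.7% of IDs were called higher, with edgeR adjusted p of 0.245, 0.605 and 0.674.

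Set directly against 5 h, both strongly induced genes fell. CCL4 had a mean of 0.471 ± 0.637 CPM at 12 h and 15.3 ± 0.937 CPM at 5 h (SD, n = 3 each), and its log2 fold change was -4.68 ± 0.55 (SE), with an adjusted p of 7.69e-07 by edgeR. CXCL8 had a mean of 0.985 ± 0.923 CPM at 12 h and 8.45 ± 2.51 CPM at 5 h (SD, n = 3 each), a log2 fold change of -3.22 ± 0.60 (SE) with an adjusted p of 0.000242 by edgeR. For both genes the highest 12 h library stayed under the lowest 5 h library. Of tested IDs 13.5% were called lower in this comparison, and CCL4 had the 6th and CXCL8 the 35th lowest log2 fold change among them. Since both passed the filter through their 5 h libraries, these calls and ranks are also partly built into it. The value for CCL4 was -7.31 without 12 h replicate 1 and between -4.73 and -4.14 without any other library of the comparison. For CXCL8 it was -3.93 without 12 h replicate 2, -2.70 without 12 h replicate 3 and between -3.34 and -2.95 without any other library of the comparison.

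For the weakly counted members the intervals between 12 h and 5 h were wide. CCL5 averaged 0.524 ± 0.0811 CPM at 12 h and 1.05 ± 0.256 CPM at 5 h (SD, n = 3 each). Its libraries did not overlap between the times, as for 16.9% of IDs with a count that were all lower at 12 h. Its ratio of pooled CPM was 0.545 (95% counting interval 0.268 to 1.03), and the unfiltered fit gave an edgeR adjusted p of 0.694. The ratio was 0.432 for CCL3 (0.216 to 0.802), 0.414 for CCL1 (0.101 to 1.27) and 0.406 for CCL20 (0.0742 to 1.48). The unfiltered edgeR fit gave adjusted p of 0.512, 0.791 and 0.802 for these genes, and called 10.2% of IDs lower.

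As a share of its 3 group means added together, CCL4 had 1.16% at rest, 95.9% at 5 h and 2.95% at 12 h. The shares of CXCL8 were 0.409%, 89.2% and 10.4% in the same order of times. CCL5 had 4.43%, 63.8% and 31.7%, and CCL3 had 11.7%, 63.0% and 25.3%. CCL4 was thus the member most concentrated at 5 h among the 6 with a count.

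The balance of the genes within a library does not depend on library scaling. CCL5 made up 33.3%, 66.7% and 100% of the CCL4 and CCL5 counts together in 12 h replicates 1, 2 and 3, from 21, 3 and 4 counts. The same share was 6.86%, 7.51% and 4.88% in the 5 h replicates, from 175, 213 and 287 counts. All 12 h libraries lay above all 5 h libraries, with a difference of the means of 60.3 percentage points. The two-sided exact permutation p was 0.1, the smallest that 3 libraries against 3 allow, and 0.1 after Benjamini-Hochberg adjustment over the 3 pairs compared. These pairs were chosen after the values were seen. All 3 were formed with CCL4, which had the 6th lowest log2 fold change of 13920 tested IDs at 12 h versus 5 h. Any gene that fell less than CCL4 gains share against it, so these gains are largely built in. How many other IDs also gain against CCL4 was not computed.

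Against CCL4, CXCL8 took 41.7%, 90% and 100% of the pair's counts at 12 h (24, 10 and 1 counts) and 40.7%, 34.1% and 30.4% at 5 h (275, 299 and 392 counts). The lowest 12 h library was less than 1 percentage point above the highest 5 h library, and the exact two-sided permutation p was again 0.1. For CCL3 the share was 39.1% and 80% in 12 h replicates 1 and 2, from 23 and 5 counts, and could not be formed in 12 h replicate 3, which had neither gene. It was 12.4%, 3.43% and 7.77% at 5 h, and the exact permutation p of 2 against 3 libraries was 0.1, also the smallest possible. At 12 h these shares rest on at most 24 counts, and the exact 95% interval for CCL5 in 12 h replicate 2 ran from 9.43% to 99.2%.

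**Figure D4:**
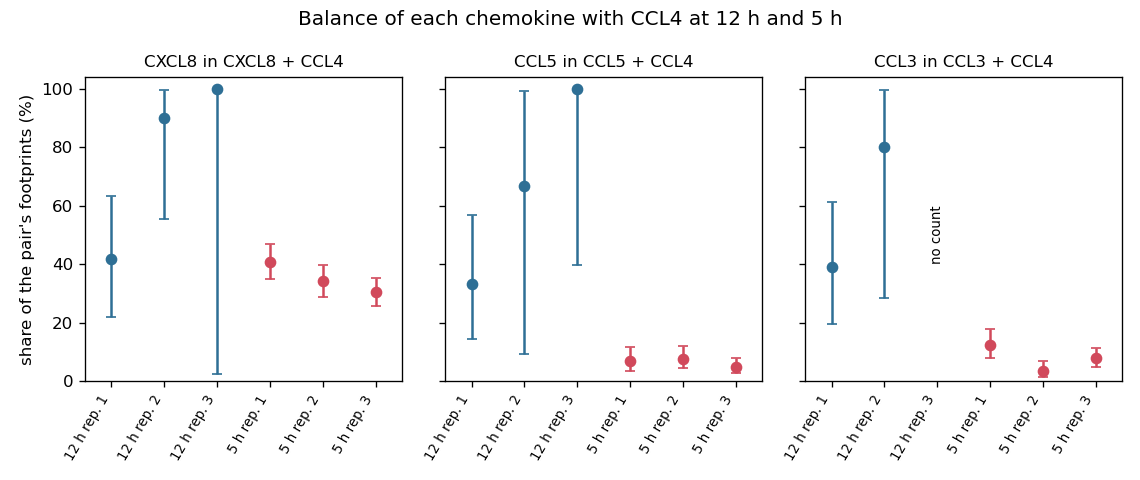
Share of CXCL8, CCL5 and CCL3 in the summed counts of that gene and CCL4 (%), per library, at 12 h (blue, left) and 5 h (red, right); bars are exact 95% binomial intervals (Clopper-Pearson), which cover counting error only. For CCL5 the 12 h libraries lie between 33.3% and 100% and the 5 h libraries between 4.88% and 7.51%; CCL3 had no count with CCL4 in 12 h replicate 3.

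The members were also compared with all IDs averaging at least 1 CPM by profile overlap. This is the summed smaller share that each of the 9 libraries holds of 2 genes' CPM, and it is 1 for identical profiles. CCL4 and CXCL8 overlapped by 0.87, against a median of 0.377 between CCL4 and the 12787 other IDs and 0.442 between CXCL8 and these IDs. Even so, 22 IDs were closer to CCL4 than CXCL8 was, and 16 were closer to CXCL8 than CCL4 was. The closest ID to CCL4 was ENSG00000131669.10 at 0.938, with 4.26 CPM at rest, 95.6 CPM at 5 h and 6.54 CPM at 12 h. The closest to CXCL8 was ENSG00000198576.4 at 0.936, with 0.142, 7.35 and 0.742 CPM at these times. CCL5 and CCL3 overlapped by 0.729, and 2210 IDs were closer to CCL5 than CCL3 was. With CXCL8 the overlap was 0.742 for CCL5 and 0.729 for CCL3. With CCL4 it was 0.677 for CCL5 and 0.654 for CCL3, close to their medians of 0.666 and 0.627 over all IDs. All profiles share the 9 libraries and their scaling, so these values are descriptions over 9 libraries in 3 groups.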

How the data were processed

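Ribosome footprints of 9 Jurkat libraries were analysed, 3 per group. The deposited count table holds whole-number, unnormalized counts for 19569 Ensembl IDs, with 1 column per library. A second deposited table holds log2 values for 11572 IDs, which equal log2 of counts over 1 size factor per library, plus 1, within 5.03e-09, and it holds 0 of the 7 members, so it served only this check. Per the submitters' processing notes the tools included cutadapt 3.2, Bowtie, RSEM, bedtools and DESeq2, and the build was GRCh38.p13, with no step assigned. Not given in the sources used here were the annotation release, strand use and handling of multiply matching fragments.

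All 9 libraries entered 1 fit in edgeR 4.0.16 (R 4.3.3), with TMM scaling, filterByExpr (13920 IDs kept), group as the only term, the quasi-likelihood test and Benjamini-Hochberg adjustment over all tested IDs. An ID was called at an adjusted p under 0.05. An SE is the log2 fold change over the square root of the F statistic. The common biological coefficient of variation was 15.6%. Simulated data were used to test the fit, with the same spread for all genes and changes set only in genes above a minimum mean count. The larger spread of genes with almost no resting count was not simulated. CPM used total counts times the TMM factor. Ratios of pooled CPM have exact conditional 95% intervals, and a floor of 3 counts was used where a group had none. Alternatives used DESeq2 1.42.0 and edgeR with other scalings, filters and libraries. P-values treat the labelled biological replicates as independent.

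Members and lists were chosen with earlier results of these data known. All 7 members are named. The 151 symbols of 10 further lists (other chemokines, near-identical copies, receptors, signalling, interferon-stimulated genes and cell type markers) could not be joined to Ensembl IDs with the tables used here, and they were not analysed. For genes of like profile (members with at least 50 counts, IDs averaging at least 1 CPM), the planned limit to named genes was dropped for that reason.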

Additional observations from a re-analysis of the deposited data

Results flagged for a closer look

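The activation effect differed between the 2 times for both tested chemokine genes, by the direct test of 12 h against 5 h. For CCL4 the difference was -4.68 on the log2 scale, lower at 12 h in 3 of 3 libraries than in any 5 h library. For CXCL8 it was -3.22, also with 3 of 3 libraries lower. Of tested IDs 13.5% were called lower in this comparison, and 16.9% of IDs with a count had all 12 h libraries lower. Both genes passed the low-count filter only through their 5 h libraries, so a fall from 5 h is partly built in. Groups of 3 libraries were too small for a check of single libraries that stand apart.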

How the results depend on the processing

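At 5 h versus resting and at 12 h versus 5 h, CCL4 and CXCL8 kept their direction and call in all 7 other settings and without each library in turn. In the main fit both passed the low-count filter only through their 5 h libraries. That fit called 16% of tested IDs higher at 5 h versus resting and 13.5% lower at 12 h versus 5 h. Log2 fold changes ran from 5.70 to 7.84 and from -7.31 to -4.14 for CCL4, and from 6.93 to 9.47 and from -3.93 to -2.70 for CXCL8. At 12 h versus resting CXCL8 was called in every setting that tested it, from 3.52 to 6.25. Members called at 12 h versus resting numbered 1, and 1 to 2 without single libraries, where the main fit called 15.8% of tested IDs higher. CCL4 turned to -1.02 without 12 h replicate 1, and was called without resting replicate 2 (3.16) and without 12 h replicate 3 (2.15). Members called at 5 h versus resting numbered 2, and 2 to 3 without single libraries, where the looser filter that groups of 2 give also let in both CCL3 and CCL5 in 3 of 6 fits, 1 of them in 2 and neither in 1. With no low-count filter CCL5 was the third member called there, at 3.63, where 11.6% of IDs were called higher. In unfiltered fits without 1 library, chosen after seeing the data, it was called in 1 of 6. In those fits CCL1, CCL3 and CCL20 were never called. CCL20 ranged from 1.25 to 4.80 at 5 h versus resting, from -2.05 (without 12 h replicate 3) to 3.61 at 12 h versus resting and from -4.82 to 0.32 (without 5 h replicate 2) at 12 h versus 5 h. In the same order of comparisons CCL3 ranged from 1.76 to 3.51, from 0.48 to 2.19 and from -1.77 to -0.73, and CCL5 from 3.08 to 6.48, from 2.10 to 5.49 and from -1.14 to -0.88. CCL1 ranged from 4.90 to 5.18, from 3.99 to 4.59 and from -5.19 (without 12 h replicate 3) to -0.52 (without 12 h replicate 1), and gave no value at 12 h versus resting without 12 h replicate 3, which held all its 12 h counts.

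Same-numbered libraries did not deviate together (correlations from -0.062 to 0.09), and not every library correlated best with its own number. With the replicate number as a block, 2, 1 and 2 members were called in the 3 comparisons, as without it. CCL4 stood at 6.35, 1.49 and -4.87 and CXCL8 at 7.52, 4.14 and -3.37, and calls over all IDs were 4644, 4689 and 3373 against 4797, 4887 and 3497. The fit of only the 6 libraries gave no value at 12 h versus resting, since no member passed its filter. Summing near-identical copies and limma on the authors' log2 table were not run, for lack of matched or listed IDs. Members under about 20 counts are limited by depth, above all in 12 h replicate 2.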
